A study of Drosophila melanogaster with 13 samples.

Results

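Flies kept for 7 days on a sugar diet were compared with flies kept on a control diet, by RNA sequencing of the proboscis, the mouthpart that ends in the labellum and carries the taste hairs. The comparison uses 4 of the 13 libraries of the study, chosen by their diet label in the parental genotype, with 2 sugar diet and 2 control diet libraries. Both groups were Drosophila melanogaster of the genotype labelled parental, with no driver or RNA interference transgene named, and their ages were matched. The control diet was standard cornmeal food, and the sugar diet was that food with sugar added; the sugar, its amount and the sex of the flies are not given in the sources used here. Each library pooled 200 proboscises, so a library is a mean over many flies and says nothing of single flies. The series text speaks of biological replicates but not of how the pools were formed, and a p-value here sets the diets against pool-to-pool spread, part of which may be technical.

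The sugar diet libraries held 5632598 and 6481195 estimated counts and the control diet libraries 7559788 and 8105908. A count of 0 in a library allows up to 3 counts, that is 0.533 and 0.463 CPM (counts scaled to an equal library total) in the sugar diet libraries and 0.397 and 0.37 CPM in the control diet libraries, for counting error only. The tissue label is labellum, whereas whole proboscises had been dissected. Of 22 labellum and taste organ markers, 18 were high enough to test and 1 of them, Obp49a, was called lower. The sum of the 22 was 1400 to 1620 CPM on the sugar diet, against 1820 to 1850 CPM on the control diet. The Hox genes that specify the mouthparts were present in all 4 libraries: pb at 192 and 208 CPM on the sugar diet, against 226 and 231 CPM on the control diet, and Scr at 337 and 371 CPM against 382 and 422 CPM. Markers of muscle summed to 26300 to 31600 CPM on the sugar diet, against 21400 to 21900 CPM on the control diet, and those of the fat body to 1110 to 1130 CPM and 1470 to 1540 CPM. The gut markers summed to 21.9 to 30.9 CPM on the sugar diet, against 46.8 to 48.2 CPM on the control diet, nearly all of it from the 1 testable marker, the protease gene Jon25Bi, which was called lower. The ranges of the diets overlapped for haemocytes (13.4 to 18 CPM against 14.7 to 15.4 CPM, with He at 0 in every library), the eye (1.6 to 2.37 CPM against 1.5 to 2.61 CPM, with Rh3 at 0) and female tissue (0.988 to 4.16 CPM against 2 to 3.3 CPM). Male tissue markers summed to 0.48 to 0.791 CPM against 0.25 to 0.455 CPM.

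Dietary sugar enters several linked routes in insect cells. It can be stored as glycogen or circulated as trehalose, it can pass through the pentose phosphate pathway, which makes NADPH and ribose, and it can be turned into fat. Serine and glycine made from sugar feed the folate (one-carbon) cycle, whose carbon units are built into purines. A gene can also change which of its transcripts it makes, through another start site, another splice or another 3′ end. A sum per gene hides this, so genes, single transcripts and the shares of transcripts within a gene were each compared.

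Across genes, both directions were about equally frequent. Of 8825 genes tested with edgeR's quasi-likelihood test, 571 passed an adjusted p of 0.05 (6.47%). Of these, 275 were higher on the sugar diet (3.12%) and 296 were lower (3.35%). The counts of calls in each list below are to be read against these shares. The values of the diets did not overlap in 4183 genes (47.4%), so non-overlap alone sets few genes apart with 2 libraries a diet. The number of calls changed with the library left out, while all 571 kept their sign in each such fit. In such a fit the spread within a diet comes from the other diet's pair alone. Replicates differed more on the sugar diet (chi-square per degree of freedom 33.9, against 18.1 on the control diet). The part of this in the calls was not tested. Levels below are CPM with edgeR's TMM library scaling, given as sugar diet replicates 1 and 2 and then control diet replicates 1 and 2. CPM grows with transcript length, so it compares diets within a gene and not genes with each other. On the authors' TPM, which are scaled by length and not by TMM, the median gene lay at a log2 difference of -0.27, against 0.0037 in the edgeR fit. TPM differences below are therefore read against -0.27. The split of calls differed as well under limma on log2 TPM, which changes both the test and the scale: it called 491 genes, 51 higher and 440 lower, against 275 and 296 with edgeR.

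**Figure D1:**
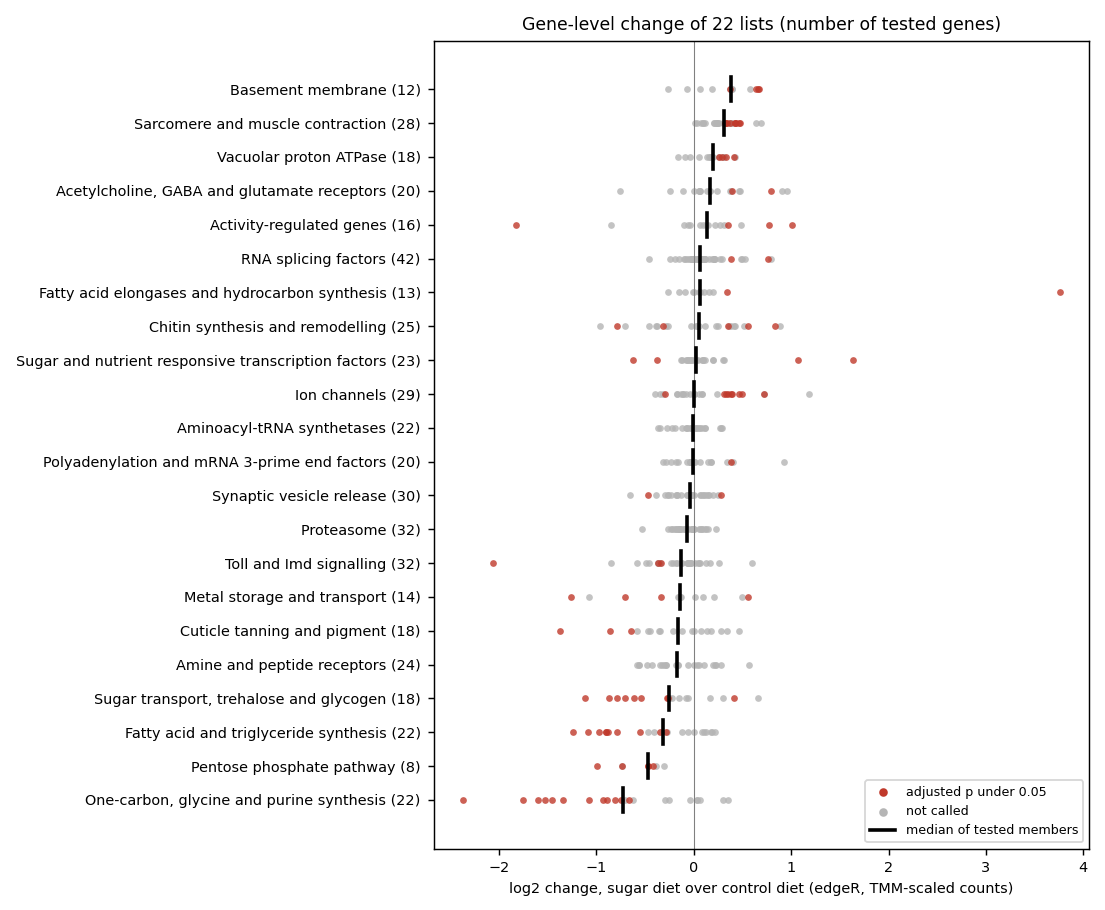
Log2 difference between sugar diet and control diet (horizontal axis) for every tested member of 22 gene lists (rows), with red dots for genes called by edgeR, grey dots for the others and a black bar at the list's median. The one-carbon, glycine and purine list has the lowest median, -0.73, with 12 of its 22 members called lower, and the basement membrane list the highest, 0.38.

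Genes of the folate cycle and of purine synthesis were lower on the sugar diet. Of 22 tested members of that list, 12 were called lower and 0 higher, with a median log2 difference of -0.73 (-0.998 on TPM). The count was 10 to 14 when any 1 library was left out. The lower genes included enzymes that load and move one-carbon units and enzymes of purine assembly. The fat body sum given above was lower on the sugar diet as well, and all 3 testable fat body markers, Lsp1beta (-1.35), apolpp (-0.40) and Mtp (-0.82), were called lower. Their part in these differences, and in those of the pentose phosphate, glycogen and lipid lists below, was not tested. In bulk tissue, fewer cells of a type and less RNA per cell cannot be told apart.

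The pug gene (3R:10696534-10703316, plus strand, BDGP6), which encodes a multifunctional folate-cycle enzyme, had 49.6 and 58.7 CPM on the sugar diet, against 153 and 145 CPM on the control diet. Both sugar diet libraries lay far below both control diet libraries, with a log2 difference of -1.45 (SE 0.0996; edgeR adjusted p = 1.27e-07). Shmt, the serine hydroxymethyltransferase that charges folate with a one-carbon unit (X:5913067-5916797, minus strand), had 36.2 and 30.9 CPM on the sugar diet, against 101 and 91.3 CPM on the control diet. Its diets were as clearly apart, at -1.52 (SE 0.114; edgeR adjusted p = 2.59e-07). Nmdmc, a mitochondrial folate-cycle enzyme, had 19.2 and 13.7 CPM against 53.8 and 45.0 CPM and fell by 1.60 on the log2 scale.

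In purine synthesis, ade3, a multifunctional enzyme that the annotation lists as Gart (2L:7014623-7023898, minus strand), had 67.6 and 83.9 CPM on the sugar diet, against 195 and 190.2 CPM on the control diet. The groups did not overlap and the log2 difference was -1.34 (SE 0.099; edgeR adjusted p = 2.27e-07). CG11089, a member of the same list (3R:24877045-24881478, plus strand), had 47.4 and 35.7 CPM against 144 and 134 CPM and fell by 1.75 (SE 0.117; edgeR adjusted p = 1.14e-07). Lower as well were ade2 (-0.81), ade5 (-0.75), AdSL (-0.93) and Prat2 (-0.89), which all encode enzymes of purine synthesis. CG3999, also on the list, had 7.31 and 6.87 CPM against 31.8 and 41.2 CPM. It fell by 2.37. In the methyl cycle, the glycine methyltransferase gene Gnmt was lower by a log2 difference of -1.08 and the adenosylhomocysteinase gene Ahcy by -0.67. Not every member was lower: AdSS, which starts the branch to AMP, stood at 0.35 (edgeR adjusted p = 0.0707) and was not called.

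Of 8 tested genes of the pentose phosphate pathway and NADPH supply, 5 were called lower and none higher, and the log2 difference was below 0 in all 8, with a median of -0.47 (-0.74 on TPM). Taldo, the transaldolase (2R:23940410-23942114, plus strand), had 51.8 and 47.8 CPM on the sugar diet, against 102.4 and 95.0 CPM on the control diet. Its diets were separate, at a log2 difference of -0.99 (SE 0.101; edgeR adjusted p = 7.63e-06). CG8036 of the same list differed by -0.74, with 176 and 193 CPM against 299 and 317 CPM. In the oxidative steps, Zw, glucose-6-phosphate dehydrogenase, had 42.1 and 40.2 CPM against 57.0 and 53.1 CPM (-0.42; edgeR adjusted p = 0.0382), and Pgd, the next dehydrogenase, 45.5 and 45.9 CPM against 68.7 and 57.5 CPM (-0.46; edgeR adjusted p = 0.0238). Men, malic enzyme, differed by -0.47. The 3 members not called were Rpi, the ribose-5-phosphate isomerase (-0.74; edgeR adjusted p = 0.0647), CG17333 (-0.38) and CG30499 (-0.31). Fewer of these calls were made without control diet replicate 1, where Men lost its call, and without control diet replicate 2. The list's median stayed between -0.6 and -0.35 with any 1 library left out.

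In sugar transport, trehalose and glycogen metabolism, 8 of 18 tested genes were called lower and 1 higher (median -0.26; -0.53 on TPM). UGP, which makes the UDP-glucose used for both stores (3L:9350867-9358935, minus strand), had 101 and 103 CPM on the sugar diet, against 187 and 186 CPM on the control diet. Replicates were close within each diet, and the diets were far apart, at -0.87 (SE 0.0821; edgeR adjusted p = 3.71e-06). Tps1, the trehalose-6-phosphate synthase, had 87.0 and 104 CPM against 160.2 and 171 CPM and fell by 0.79. Pgm, phosphoglucomutase, had 80.3 and 65.1 CPM against 125 and 112 CPM and fell by 0.71. The list's other lower genes were CG5171 (-1.11), the branching enzyme AGBE (-0.61), CG9485 (-0.54), the trehalase Treh (-0.28) and the glycogen phosphorylase GlyP (-0.27). The 1 higher gene was Glycogenin, the protein primer of glycogen, which rose: it had 329 and 286 CPM on the sugar diet, against 239 and 222 CPM on the control diet (0.41; edgeR adjusted p = 0.00627). GlyS, which elongates the chain, stood at -0.22 and was not called (edgeR adjusted p = 0.179). The lower calls numbered 5 without control diet replicate 1 and 4 without control diet replicate 2, and Glycogenin was called in neither of those fits.

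Fatty acid and triglyceride synthesis had 10 of 22 tested genes lower and 0 higher (median -0.31), led by FASN1 (-1.24), ACC (-1.09), AcCoAS (-0.97) and Desat1 (-0.88), which make and desaturate fatty acids. Among 13 elongases and hydrocarbon synthesis genes 2 were higher, Cyp4g1 (3.76) and CG31523 (0.34), the second of which lost its call without either control diet library. Of 23 transcription factors and signals that respond to sugar and nutrients, 2 were called in each direction. SREBP, an activator of lipid genes, had 213 and 203 CPM on the sugar diet, against 334 and 309 CPM on the control diet, and fell by 0.63 (edgeR adjusted p = 7.14e-05). Mondo, the sugar-sensing factor, fell by 0.37. The repressor sug rose by 1.63 on a low level, with 6.72 and 9.78 CPM against 2.13 and 3.20 CPM. The activin-type ligand daw (2L:2805261-2812376, plus strand) had 36.4 and 33.6 CPM against 15.3 and 17.8 CPM and rose by 1.07 (SE 0.151; edgeR adjusted p = 0.000221). The Mondo call was lost without either control diet library and the sug call without control diet replicate 1.

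**Figure D2:**
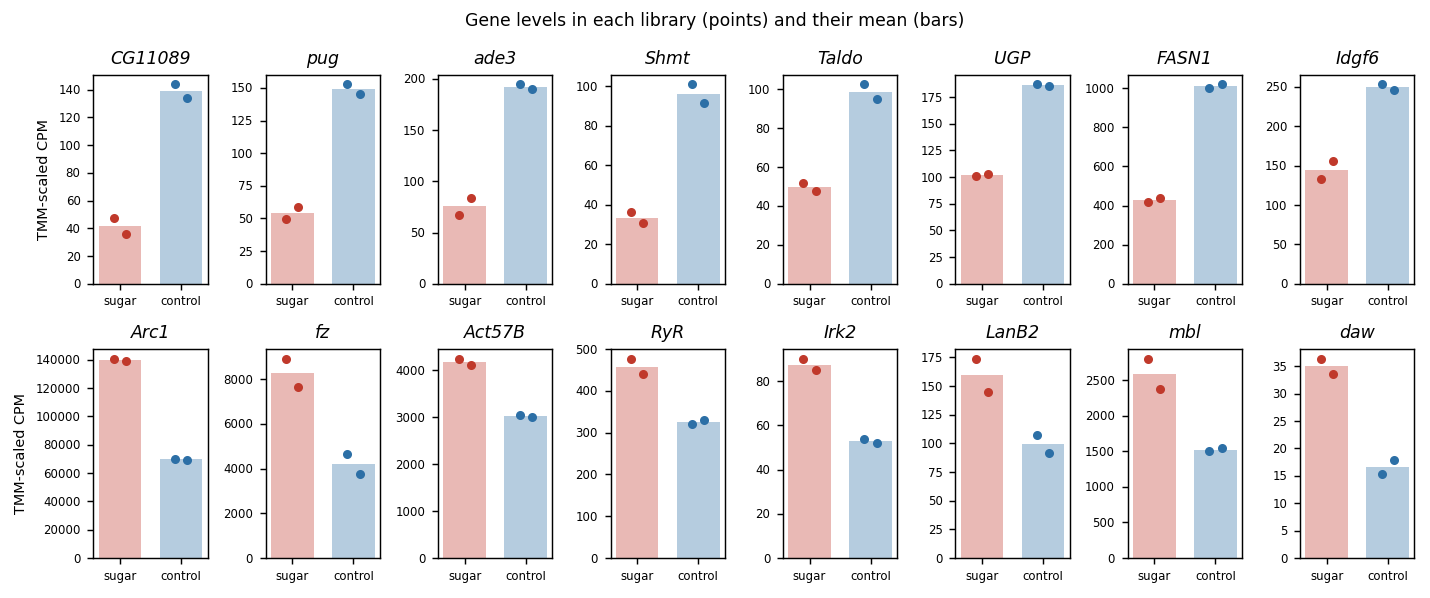
TMM-scaled CPM of 16 genes in each library, with sugar diet libraries to the left of control diet libraries and a bar at each diet's mean (n = 2). The genes CG11089, pug, ade3, Shmt, Taldo, UGP, FASN1 and Idgf6 are lower in both sugar diet libraries, and Arc1, fz, Act57B, RyR, Irk2, LanB2, mbl and daw are higher in both.

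Some genes of the sarcomere and of the basement membrane were higher on the sugar diet. Of 28 tested genes of the sarcomere and of contraction, 9 were called higher and 0 lower, and all 28 had a positive log2 difference, with a median of 0.31. Act57B, a muscle actin whose reads can be shared with other actin genes, had 4242 and 4102 CPM on the sugar diet, against 3050.3 and 3008 CPM on the control diet (0.46; edgeR adjusted p = 0.00387). RNA of the giant proteins of the muscle lattice was also higher: the titin-like sls (0.43), the projectin bt (0.42), Unc-89 (0.34) and the nuclear anchor Msp300 (0.42). Tropomyosin Tm1 (0.47) and the myosin light chain Mlc2 (0.37) were called as well. Few or none of these calls were made without either control diet library, and more were made without sugar diet replicate 2. The list's median stayed between 0.178 and 0.381 with any 1 library left out. On TPM none was called and the median was 0.04, against -0.27 for the median gene.

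Basement membranes are sheets of laminin, collagen IV and perlecan that line muscle, nerve and epithelia. In that list, 4 of 12 genes passed the test as higher and 0 as lower, with a median of 0.38 (0.09 on TPM). LanB2, a laminin chain (3L:9614914-9623980, plus strand), had 174 and 145 CPM on the sugar diet, against 108 and 91.7 CPM on the control diet. Sugar diet replicate 1 was the highest library and the groups did not overlap, at 0.67 (SE 0.103; edgeR adjusted p = 0.000476). The laminin chain LanA had 205 and 149.8 CPM against 119.8 and 104 CPM (0.66; edgeR adjusted p = 0.0209), and the collagen IV chain vkg 95.9 and 71.5 CPM against 54.9 and 52.1 CPM (0.64). The perlecan gene trol had 489.6 and 413 CPM against 358 and 337 CPM (0.38). Without control diet replicate 1 the list held 2 calls and without control diet replicate 2 it held 1. The muscle sum was higher on the sugar diet too. That sum holds sls, bt and Mlc2 of the sarcomere list and so repeats those genes. In it, sls alone had 19200 and 16000 CPM on the sugar diet, against 13100 and 12900 CPM on the control diet. The part of muscle in the matrix and muscle differences was not tested.

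Of 18 subunits of the vacuolar proton ATPase, which acidifies organelles and drives ion transport, 4 were called higher and 0 lower, and 15 had a positive log2 difference (median 0.20). On TPM the median turned negative, -0.08, which is still above the -0.27 of the median gene. Vha68-2, a catalytic subunit, had 478 and 495 CPM on the sugar diet, against 377 and 355 CPM on the control diet (0.41; edgeR adjusted p = 0.00267). VhaAC39-1 (0.33), Vha44 (0.30) and Vha26 (0.26) were the others. All 4 calls were lost without either control diet library, and Vha26 was at -0.02 on TPM.

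Of 29 ion channel genes, 8 were called higher and 1 lower, with a median log2 difference of 0.0035. The inward rectifier potassium channel Irk2 (3R:23513617-23519445, minus strand) had 90.1 and 84.9 CPM on the sugar diet, against 53.8 and 51.95 CPM on the control diet. Its replicates were close and its diets separate, at 0.73 (SE 0.0989; edgeR adjusted p = 0.000156). Its relative Irk1 had 111 and 113 CPM against 83.9 and 77.98 CPM (0.47). The ryanodine receptor RyR, a calcium release channel abundant in muscle, had 477 and 439 CPM against 319.8 and 331 CPM (0.49), and the calcium channel subunit Ca-beta differed by 0.39. Calls were also made for the potassium channel genes slo (0.34), Sh (0.31), Shab (0.35) and SK (0.38), and for the sodium channel gene NaCP60E in the other direction (-0.29). Without control diet replicate 1 only 1 of the higher calls was made, and without control diet replicate 2 only 2. Neuron markers summed to 562 to 579 CPM on the sugar diet, against 568 to 581 CPM on the control diet, ranges that overlap, while glia markers summed to 1200 to 1220 CPM and 1020 to 1110 CPM.

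At synapses, as over all tested genes (6.47%), a small part of the genes was called. Among 20 receptors for acetylcholine, GABA and glutamate, 17 had a positive difference but 2 were called, the nicotinic subunit nAChRalpha5 (30.2 and 26.8 CPM on the sugar diet, against 14.4 and 18.1 CPM on the control diet; 0.80) and the glutamate-gated chloride channel GluClalpha (0.40). Of 30 genes of vesicle release, complexin, cpx, was lower (-0.47; edgeR adjusted p = 0.00351) and the amphiphysin gene Amph higher (0.28; edgeR adjusted p = 0.042). On TPM Amph stood at -0.0064, below 0 but above the -0.27 of the median gene. Without control diet replicate 1, nAChRalpha5, GluClalpha and Amph lost their calls, and without control diet replicate 2, GluClalpha, Amph and cpx did. None of 24 receptors for amines and peptides was called by edgeR or DESeq2, with 1 at an unadjusted p under 0.05. The smallest p-values there were those of Octbeta2R, an octopamine receptor (0.22, edgeR adjusted p = 0.146; -0.09 on TPM), and Pdfr, a receptor of a clock peptide (-0.35, edgeR adjusted p = 0.326).

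Among 16 activity-regulated genes, 3 were called higher and 1 lower. Arc1, a capsid-forming gene related to the Gag protein of retrotransposons, had 140630 and 138810 CPM on the sugar diet, against 70002 and 69180 CPM on the control diet. The replicates of each diet were close, both sugar diet libraries lay far above both controls, and the log2 difference was 1.01 (SE 0.112; edgeR adjusted p = 2.09e-05). Hairy, h, a transcriptional repressor, had 322 and 351 CPM against 189.9 and 203 CPM (0.77), and the clock repressor vri rose by 0.35, a call lost without either control. CG17778 was lower at a level near the counting limit, with 1.38 and 0.639 CPM against 3.63 and 3.41 CPM, and its call was lost without sugar diet replicate 2 or without either control.

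Other genes with high CPM changed as well. The Wnt receptor gene fz (3L:14274343-14368639, plus strand) had 8917 and 7647 CPM on the sugar diet, against 4636 and 3751 CPM on the control diet. All sugar diet values lay above all control values, at 0.98 (SE 0.116; edgeR adjusted p = 3.6e-05). The giant matrix protein gene dpy, which anchors cuticle to cells, had 17476 and 17021 CPM against 12408 and 12653 CPM (0.46). CG10970 had 3324 and 3206 CPM against 2116 and 1427 CPM (0.88). Among lower genes, CG8343 had 7356 and 10691 CPM on the sugar diet, against 15132 and 14346 CPM on the control diet (-0.71), with sugar diet replicate 1 the lowest library. CG3088 (-0.58) and CG8329 (-0.78) showed the same order of libraries. Alcohol dehydrogenase, Adh, had 2768 and 3034 CPM against 4461 and 4368 CPM (-0.61; edgeR adjusted p = 0.000464). Lower too were the lipoprotein gene apolpp (-0.40), the transporter gene MRP (-0.54), the odorant-binding protein gene Obp49a (-0.33) and CG17839 (-0.42). Calls for dpy, CG8343, CG3088, CG8329, apolpp, Obp49a and CG17839 were lost without either control diet library, and that for Obp49a also without sugar diet replicate 1.

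In chitin synthesis and remodelling, 3 of 25 tested genes were higher and 2 lower. The chitin deacetylase gene serp had 66.0 and 64.6 CPM on the sugar diet, against 44.3 and 44.3 CPM on the control diet (0.56), and its partner verm rose by 0.35. Cht6, a chitinase, rose by 0.84. Idgf6, a secreted chitinase-like growth factor, had 133 and 156 CPM against 253 and 246 CPM and fell by 0.79 (edgeR adjusted p = 2.01e-05), and Idgf4 fell by 0.32, a call lost without either control. None of the 3 higher calls was made without control diet replicate 1 or without control diet replicate 2. Markers of epidermis and trachea, a list that also holds serp and verm, summed to 235 to 251 CPM on the sugar diet, against 182 to 190 CPM on the control diet.

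Of 18 genes for cuticle tanning and pigment, 3 were lower. Phenylalanine hydroxylase, Hn, which supplies tyrosine, had 101 and 112 CPM on the sugar diet, against 185 and 202 CPM on the control diet (-0.86; edgeR adjusted p = 8.14e-06). The tryptophan oxygenase gene v fell by 1.37 and yellow-d by 0.64. Of 14 genes for metal storage and transport, 3 were lower and 1 higher. Metallothionein MtnA, which binds copper and other metals, had 17.0 and 19.5 CPM against 40.3 and 47.2 CPM (-1.26; edgeR adjusted p = 3.86e-05). Transferrin, Tsf1, had 352 and 415 CPM against 656 and 599 CPM (-0.71), and the ferritin heavy chain Fer1HCH fell by 0.34. The copper importer Ctr1A rose by 0.56, with 33.2 and 26.7 CPM against 20.3 and 20.3 CPM. Only Hn, MtnA and Tsf1 of these 7 were called with each library left out in turn.

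In Toll and Imd signalling, 3 of 32 genes were lower and 0 higher (median -0.13): the recognition protein gene PGRP-SC2 (0.791 and 0.799 CPM on the sugar diet, against 2.50 and 4.21 CPM on the control diet), the serpin gene nec (-0.37) and the NF-kB factor gene Rel (-0.33). A single call was left without control diet replicate 1, and likewise without control diet replicate 2. In protein turnover and translation, edgeR and DESeq2 called none of 32 proteasome genes (1 with an unadjusted edgeR p under 0.05; median -0.07) and none of 22 aminoacyl-tRNA synthetases (2 with an unadjusted edgeR p under 0.05; median -0.0067). The smallest p-values belonged to Prosbeta3 (-0.53, edgeR adjusted p = 0.115), Rpn1 (-0.18, edgeR adjusted p = 0.393), AlaRS (-0.35, edgeR adjusted p = 0.191) and HisRS (-0.37, edgeR adjusted p = 0.204).

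Calls among splicing and 3′ end factors were about as rare as over all tested genes, where 3.12% were higher and 3.35% lower. Among 42 splicing factors, 2 were called higher and 0 lower (median 0.07). There were 6 higher without sugar diet replicate 2, 3 lower without sugar diet replicate 1, and 1 higher without control diet replicate 1 or without control diet replicate 2. Muscleblind, mbl, which controls alternative splicing in muscle and nerve (2R:17216549-17379376, plus strand), had 2799 and 2377 CPM on the sugar diet, against 1499 and 1540.3 CPM on the control diet. The groups were apart by more than the spread within either, at 0.77 (SE 0.0922; edgeR adjusted p = 4.18e-05). Doa, a kinase of SR splicing proteins, rose by 0.38, a call lost without either control. Among 20 factors of polyadenylation and mRNA 3′ ends, 1 was higher, the poly(A)-binding protein gene pAbp, with 3284 and 3462 CPM against 2628 and 2558 CPM (0.38), also lost without either control.

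At the level of single transcripts, the outcome depended on how the error of assigning reads to isoforms was treated. On the estimated counts as deposited, edgeR called 0 of 17390 transcripts (0%), with a smallest adjusted p of 0.435, although 1457 had an unadjusted p under 0.05 and DESeq2 called 999. In the authors' deposited table, 204 of 19162 transcripts had a q-value under 0.05 (1.06%), 93 higher and 111 lower. That table also gives a technical variance for each transcript, on a natural-log scale, which reflects how firmly reads could be assigned to it. Dividing each transcript's counts by the overdispersion this implies, a step chosen after the first result was seen, left 9447 transcripts to test. Of these edgeR called 376 (3.98%), 159 higher (1.68%) and 217 lower (2.3%), in 351 genes. The number was 486 without sugar diet replicate 1, 647 without sugar diet replicate 2, 245 without control diet replicate 1 and 289 without control diet replicate 2. They included 191 of the authors' 204, which is 93.6% of the authors' list and 50.8% of the 376, and all 191 had the same direction. Both lists come from the same libraries, so one is no independent check of the other.

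Most transcript calls lay in called genes. Of the 376, 156 were the only isoform tested of their gene and 307 belonged to a gene called at the gene level. Of 188 called genes with at least 2 isoforms in the scaled test, all isoforms had the same sign in 119. By list, one-carbon, glycine and purine genes had 9 of 20 transcripts called lower, fatty acid and triglyceride synthesis 8 of 40 lower and 1 higher, and the sarcomere list 10 of 116 higher and 1 lower.

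**Figure D3:**
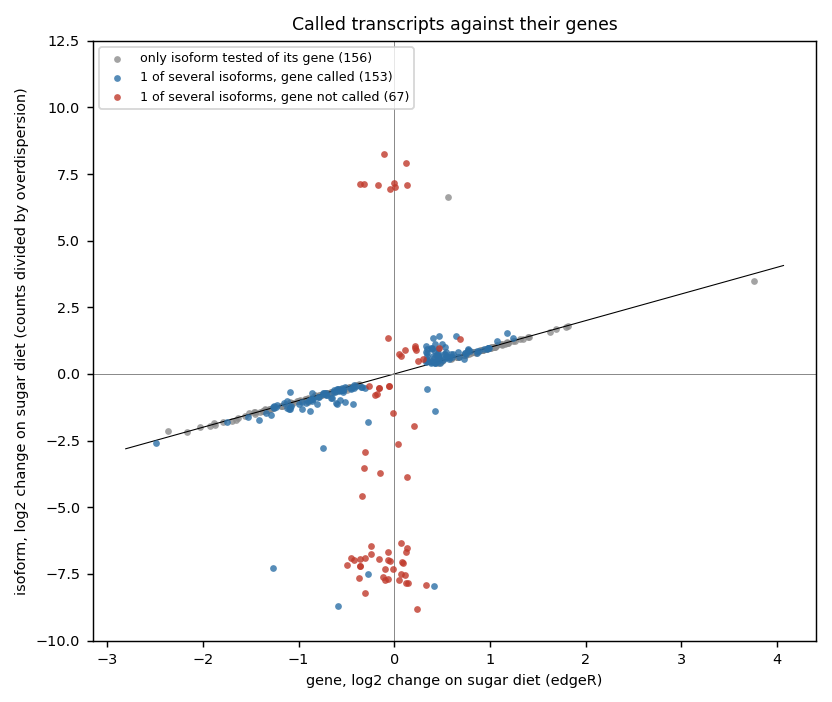
Log2 difference of each of the 376 called transcripts (vertical axis) against that of its gene (horizontal axis), sugar diet relative to control diet, with symbols for transcripts of called and of not called genes. Most lie along the diagonal; the points far above or below it near a gene difference of 0 include isoforms at or near 0 in one diet, whose fitted size depends on the prior count.

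A smaller set of transcripts was called on scaled counts while their gene was not called. It had 69 transcripts of 63 genes, 22 higher and 47 lower, and 41 of the 69 had under 0.5 counts in both libraries of one diet. For such isoforms the shares of the gene are given and no fold. CG1441 had 11.7 and 14.7 CPM on the sugar diet, against 17.4 and 15.8 CPM on the control diet as a gene and was not called. Its isoform RB (FBtr0088449) held 87.1 and 87.5% of the gene's counts on the sugar diet, and it was listed with 8.33e-05 and 0 counts on the control diet. Its isoform RA (FBtr0088448) held the rest, with 7.60 and 11.5 counts on the sugar diet and 139 and 139 counts on the control diet. The isoforms differ by 3 bases in length and both code for 1551 bases. Their technical standard deviations in the authors' table (natural-log scale) were 0.876 for RB and 0.372 for RA, against a median of 0.303 over tested transcripts.

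Further switches of this kind were listed in Dd, the dullard phosphatase gene, whose RB (FBtr0339623) held 96.7 and 100% on the sugar diet and was listed at or near 0 on the control diet. The calcineurin B gene CanB was listed with RB (FBtr0308348) alone on the sugar diet, at 10 and 15.1 counts, and RA (FBtr0070764) alone on the control diet, at 19.2 and 19.0 counts. CG5274 was listed in the same way. These 3 genes and CG1441 were, with Msp300 and CG34417, the 6 genes with transcripts called in both directions. In the authors' deposited table the q-values of RA and RB were 0.934 and 0.97 for CanB and 0.549 and 0.555 for CG5274. They were 0.021 and 0.083 for Dd and 0.00358 and 0.145 for CG1441. In Dd the isoforms differ by 9 bases and in CanB by the start site, 243 bases apart. Among isoforms whose gene was not called, CRAT-RB (FBtr0110774), of the carnitine acetyltransferase gene, was listed at or near 0 on the sugar diet and held 85.8 and 63.6% on the control diet. CG6686 had an isoform (FBtr0301171) at or near 0 against 44.6 and 35.0%. CG1882 had one (FBtr0088837) at 22.2 and 17.7% on the sugar diet and 0 in both control diet libraries. The authors' q-values were 0.0592 for the CRAT isoform, 0.0807 for that of CG6686 and 0.097 for that of CG1882. The technical standard deviations of these isoforms were 0.919, 0.681 and 0.89, and those of RA and RB of Dd were 0.744 and 0.923.

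Other shifts were among isoforms counted in all 4 libraries. In Msp300 the isoform RK (FBtr0332404) held 3.76 and 4.13% of the gene on the sugar diet and 2.29 and 2.44% on the control diet, and rose by 1.14 (SE 0.128; edgeR adjusted p = 4.96e-05 on scaled counts). RE (FBtr0303384) held 14.1 and 14.7% against 9.33 and 11.8% and rose by 0.85. RD (FBtr0303385) held 0.868 and 1.80% against 5.50 and 4.29% and fell by 1.41, a call (edgeR adjusted p = 0.0411) lost without sugar diet replicate 1 and without control diet replicate 1. Over all 10 tested isoforms of Msp300 the mean share differed by -3.56 to 3.83 percentage points. In CG34417 the isoform FBtr0303205 held 28.4 and 30.2% against 22.7 and 22.8% and rose by 0.68, and FBtr0336669 held 6.91 and 6.73% against 13.3 and 11.7% and fell by 0.55. Without control diet replicate 1 both of these calls were lost, and without control diet replicate 2 the call for FBtr0336669 was. Over its 16 tested isoforms the mean share differed by -5.68 to 6.51 percentage points. Nc73EF, which encodes a subunit of oxoglutarate dehydrogenase and had 1365 and 1347 CPM against 1259 and 1245 CPM, was not called as a gene. Its isoform RJ (FBtr0333214) held 37.3 and 26.6% against 19.5 and 16.6% and rose by 0.91 (edgeR adjusted p = 0.00401 on scaled counts).

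Isoform usage, that is whether isoforms of a gene moved by unlike amounts, was called in 40 of 3961 genes with 2 or more tested isoforms (1.01%; edgeR's diffSpliceDGE with Simes' method on the deposited counts). Of these 40 genes 3 were called at the gene level. The isoform with the smallest p had under 0.5 counts in both libraries of one diet in 34 of the 40, which was true of 2.15% of all tested transcripts. Its technical standard deviation in the authors' table was above 1 on the natural-log scale in 33 of the 40, with a median of 1.5, against 23.1% of tested transcripts and a median of 0.303. The 40 calls became 19 without sugar diet replicate 1, 0 without sugar diet replicate 2, 1 without control diet replicate 1 and 2 without control diet replicate 2. On counts divided by overdispersion, 23 of 1580 genes were called (1.46%), 7 of them among the 40. There the median technical standard deviation of the leading isoform was 0.555 and 19 of 23 had under 0.5 counts in both libraries of one diet. Such isoforms were divided by less than a plain mean count would give, because the scaling uses a mean on the log scale. When only isoforms with a technical standard deviation under 0.5 entered, 7 of 1839 genes were called (0.381%): Ubi-p63E, ade5, CG7029, Cpr65Au, wrd, CG30271 and Msp300.

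**Figure D4:**
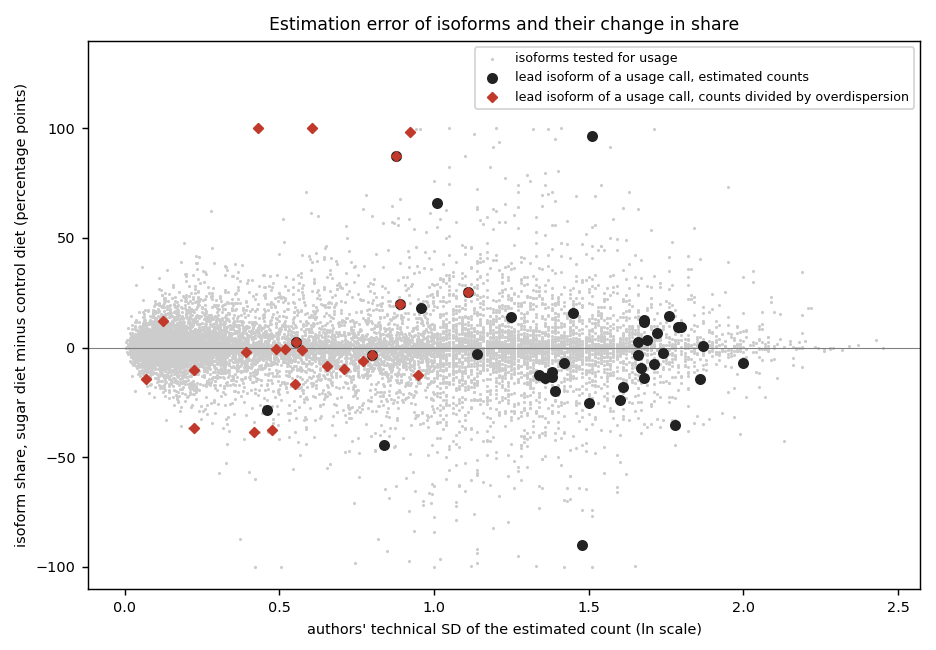
Authors' technical standard deviation of each tested isoform (natural-log scale) against the difference of its mean share of the gene, sugar diet minus control diet, in percentage points. Black circles mark the leading isoforms of the 40 genes called on deposited counts, 33 of them above 1, and red diamonds those of the 23 genes called on scaled counts.

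The 20 genes named among those called on deposited counts had the smallest adjusted p of genes that passed a rule. It asked for a mean of 5 CPM and an isoform with shares that did not overlap and differed by 10 percentage points or more. The rule thus favours wide shifts, which the counts that follow only describe. Of the 83 tested isoforms of these 20 genes, 27 had a higher share in both sugar diet libraries than in either control diet library. A further 32 had a lower share and 24 overlapped. Non-overlap is common with 2 libraries a diet, as 47.4% of tested genes had it in their levels. Its rate for shares over all tested isoforms is not given here, so these counts do not set the 20 genes apart. The widest shifts were in CG11835, listed as uncNacbeta in the annotation, and CG1647. In CG11835 the isoform RA (FBtr0078076) held 0.00589 and 0.0048% on the sugar diet and 92.8 and 87.9% on the control diet. In CG1647 the isoform RB (FBtr0336764) held 96.3 and 96.6% on the sugar diet and 0.184% and near 0 on the control diet. The pairs differ by 23 and 12 bases, and the technical standard deviations were 1.48 and 1.51. The coatomer gene gammaCOP had RA (FBtr0085793) at 77.7 and 54.0% against 0.051% and near 0, with 3 bases between it and its closest isoform. The kinase gene Pi3K68D had RD (FBtr0301816) at 29.4 and 21.6% on the sugar diet and at or near 0 on the control diet, and was called on both scales. The translation factor gene eIF4E1 was the only one of the 20 that was also called as a gene (0.34), and its usage call came from RG (FBtr0076491), which held 0 and 0.0112% on the sugar diet and 9.68 and 8.71% on the control diet, with a technical standard deviation of 1.67. Its isoform RC (FBtr0076488) held 40.8 and 43.9% against 25.9 and 33.0% and did not pass the usage test (edgeR adjusted p = 1). By itself RC was called higher on scaled counts (0.84, edgeR adjusted p = 0.014), with a technical standard deviation of 0.101. The gene's call was lost without either control diet library. The others of the 20 were hts, SP1173, lap, Sesn, CG8671, Lar, Tango1, tay, eIF3b, Stat92E, AP-1sigma, hiw, Src64B and CG9265, with CG1441 from above. Over the 20, the mean share differed by -96.4 to 96.4 percentage points, and 33 of the 83 isoforms had a technical standard deviation above 1.

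Of the 23 genes called on scaled counts, 4 had a leading isoform counted in every library, and these ade5, corto, CG34165 and CG14441 were picked out after their values were seen. The purine gene ade5, listed as Paics in the annotation (X:12757036-12760617, minus strand), makes RA (FBtr0073705) and RB (FBtr0333799), whose 3′ ends lie 724 bases apart. RA had 35.7 and 78.3 counts on the sugar diet and 564 and 596 counts on the control diet, which was 8.25 and 14.5% of the gene against 49.5 and 46.6%. RA fell by 2.78 (SE 0.358; edgeR adjusted p = 0.000142 on scaled counts), with a q-value of 3.65e-09 in the authors' deposited table. RB stood at 0.0030 on the same scale (edgeR adjusted p = 0.995). The RA shares of the diets were far apart, and the usage test gave an adjusted p of 0.00835 with edgeR on scaled counts and 0.07 on deposited counts.

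The chromatin gene corto had 812 and 872 CPM on the sugar diet, against 583 and 645 CPM on the control diet (0.46). Its isoform RE (FBtr0345141) held 10.1 and 15.8% against 27.0 and 28.1% and was not called by itself (-0.63; edgeR adjusted p = 0.169), while RC (FBtr0308119) rose by 0.70 (SE 0.115; edgeR adjusted p = 0.00122). The starts of these isoforms lie 360 bases apart and their ends 5942 bases apart. Each is 1 exon and RE lies wholly within RC, so RE has no sequence that RC lacks. In CG34165 the isoform RB (FBtr0343707) held 24.4 and 25.1% on the sugar diet and 13.5 and 12.3% on the control diet and rose by 1.33 (SE 0.213; edgeR adjusted p = 0.000961), with an end 171 bases from that of RA. In CG14441 the isoform RB (FBtr0332892) held 6.52 and 5.24% against 17.1 and 14.9% and fell by 1.46 (SE 0.35; edgeR adjusted p = 0.0227), with a start 9579 and an end 1957 bases from those of RA. That isoform's call was lost without sugar diet replicate 2 and without control diet replicate 1, and the gene itself stood at -0.02. In all 4 genes the shares of the diets did not overlap. On deposited counts none of them passed the usage test, with edgeR adjusted p of 0.07 for ade5, 0.296 for corto and 1 for both CG34165 and CG14441. No usage call on scaled counts was made without sugar diet replicate 1, and 1 was made without each of the other libraries. None of the 23 genes was called in any of these fits, where their smallest adjusted p, that of Ubi-p63E, was 0.0647 with edgeR.

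**Figure D5:**
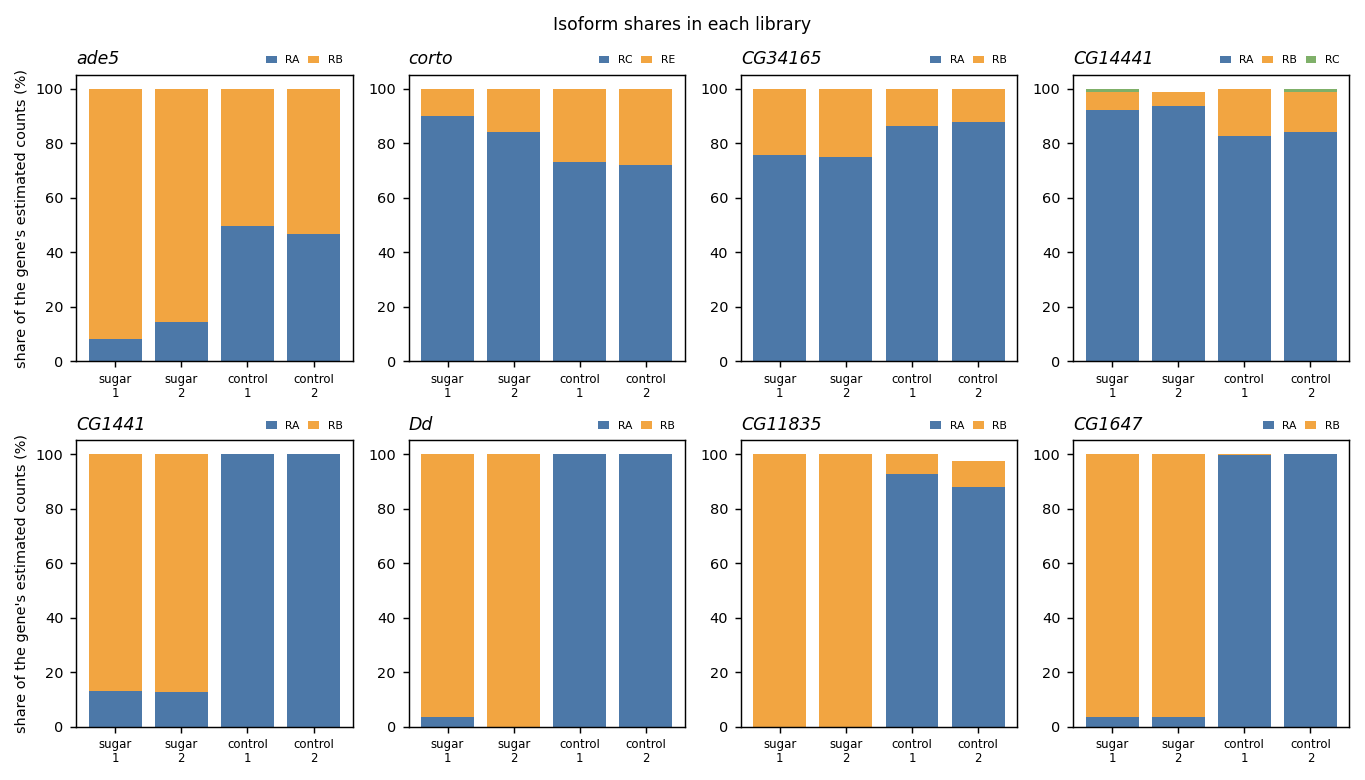
Share of each gene's estimated counts (vertical axis, percent) held by each tested isoform (colours) in the 2 sugar diet libraries and, to their right, the 2 control diet libraries, for 8 genes. Isoforms below the filter are not drawn, so the bars of CG11835 in control diet replicate 2 and of CG14441 in sugar diet replicate 2 stop below 100; RA of ade5 (blue) fills 8.25 and 14.5% on the sugar diet and 49.5 and 46.6% on the control diet.

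The vacuolar ATPase gene Vha68-2 and CG30271 show the other form of call on scaled counts. Isoform RE of Vha68-2 (FBtr0336613) was at or near 0 on the sugar diet and held 5.60 and 7.02% on the control diet (usage adjusted p = 0.00738 with edgeR). Isoform RG of CG30271 (FBtr0346668) was at 0 on the sugar diet and held 34.6 and 40.4% on the control diet, and CG32537-RA (FBtr0074687) was at 0 against 33.2 and 44.0%. The counts behind these were small, 42.2 and 46.2 in the control diet libraries for CG30271. On deposited counts none of these genes passed the usage test (edgeR adjusted p of 0.84 for Vha68-2, 0.523 for CG30271 and 0.0943 for CG32537). The authors' q-values of the isoforms were 0.0101 for Vha68-2, 0.388 for CG30271 and 0.64 for CG32537.

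The isoforms that led a call were set beside the most abundant other isoform of their gene in the BDGP6 annotation, which held 17308 of the 17390 tested transcripts. For the 40 genes called on deposited counts, the pair differed by more than 50 bases in its start in 25% and in its end in 42.5%. The positions of its coding segments differed in 52.5%. For the 23 genes called on scaled counts these were 47.8, 56.5 and 26.1%, and for all 3918 genes compared 39.1, 44.7 and 49%. The median length difference from the closest isoform was 69.5 bases for the 40 genes, 148 bases for the 23 and 149 bases for all genes with 2 or more tested isoforms. In 2032 genes with 2 tested isoforms, the shorter isoform had the more positive difference in 903 and the longer one in 1065, so the shorter one led in 45.9% of those that differed in length.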

How the data were processed

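RNA of dissected proboscises had been made into libraries with NuGEN's Ovation kit for model organisms, per the labels' protocols. Per the submitters' processing notes, Trimmomatic 0.22, kallisto 0.43 and sleuth had been used; the genome build and annotation are not given in the sources used here. The deposited tables hold estimated counts per transcript (48.6 to 52.7% of all values not whole), TPM and effective lengths in bases, as made by the authors with kallisto. The authors' deposited result table gives p-values and q-values, effects on a natural log scale and a technical variance, an other measure taken here as the variance of read assignment.

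Estimated counts were summed per gene, rounded and tested with edgeR 4.0.16 in R 4.3.3 (filterByExpr with a minimum count of 10 and a minimum total of 15, TMM, robust quasi-likelihood F test, two-sided, Benjamini-Hochberg adjustment over all tested features, called under 0.05), on the sugar diet and control diet libraries alone. A set of 50 targets with no gene, 0.0442 to 0.0493% of counts, was left out, and 100 tested genes had the same counts as another gene. Transcripts were tested in the same way and usage with diffSpliceDGE. For scaled counts, each transcript's counts were divided by a factor of at least 1. This was the authors' technical variance times the exponential of their mean natural-log count, or 1 where that was larger. A mean on the log scale lies below the plain mean, most of all for isoforms at or near 0 in one diet. The factor was thus smaller than a plain mean would give, at 4.82 for RB of CG1441 and 1 for RB of CG5274. DESeq2 1.42.0 and limma 3.58.1 (log2 of TPM plus 0.5) were alternatives. Other alternatives were another scaling, no filter, each library left out, a replicate block and an offset for effective length, which fell short of the length of long transcripts by 185.7 to 201.2 bases on average. The fits were also run on simulated data, whose outcome is not given here. The simulated usage data held no error of read assignment, so they cannot show how that error affects the usage calls. Figures were drawn with Python 3.11.15 (matplotlib 3.10.9, numpy 2.4.6, pandas 2.3.3). Replicates of a diet differed beyond sampling noise (chi-square per degree of freedom 33.9 on the sugar diet and 18.1 on the control diet).

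The members, lists and rules were chosen with earlier results of these data known. The rule named up to 20 genes for usage, with a mean of 5 CPM and a share difference of 10 percentage points or more. It also named up to 10 each for opposite and for hidden transcripts, the 10 called genes of highest mean CPM in each direction, and up to 4 called members of each list or, with none called, up to 2 of smallest p. The opposite and hidden sets were taken from scaled counts, because deposited counts gave no calls. Other list members were named after their values were seen.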

Additional observations from a re-analysis of the deposited data

How the results depend on the processing

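The 571 gene calls numbered 343 with DESeq2 (180 higher, 163 lower) and 491 with limma on TPM, of which 51 were higher and 440 lower. With 1 library left out they numbered 197 to 951 (77 to 472 higher, 120 to 479 lower); the lone library of a diet is then assumed to vary like the others. All 571 kept their sign in every fit but that on TPM, where 562 did. Over all lists, 43 members were higher and 51 lower, against 3 higher on TPM, and 8 to 70 higher and 30 to 56 lower with 1 library left out. Transcript calls on deposited counts numbered 0, against 999 with DESeq2 (446 higher, 553 lower) and 376 on scaled counts (159 higher, 217 lower). The 376 became 90 with no filter (23 higher, 67 lower), 197 with DESeq2 (77 higher, 120 lower) and 245 to 647 with 1 library left out (102 to 291 higher, 143 to 356 lower), all with the same sign. Usage was called in 40 genes, against 6 with no filter, 8 with voom, 163 with an F test, 23 on scaled counts, 7 with a technical SD under 0.5 and 0 to 19 with 1 library left out. The 23 became 39 with voom and 0 to 1 with 1 library left out. Scaled counts and the technical SD limit were chosen after seeing the data. Same-numbered libraries of the diets had deviations that correlated at 0.00375 over 2 pairs. So few pairs cannot show whether same-numbered pools were made together, and the labels share only the number. With the replicate block there were 728 gene calls, 228 scaled transcript calls (89 higher, 139 lower), 0 usage calls and 2 scaled usage calls. The sign differed in 28 of the values for named genes, 12 of them on TPM, where each of the 12 still lay above the median gene (-0.27). These were hts (-0.12), gammaCOP (-0.16), CG8671 (-0.185), Tango1 (-0.26), tay (-0.24), CG1647 (-0.20), CG5274 (-0.21), CG6686 (-0.13), Nc73EF (-0.19), Amph (-0.0064), Octbeta2R (-0.0887) and Vha26 (-0.0183). The cause of the other 16 was not tested. With 1 library left out the log2 difference ranged from -0.0663 to 0.019 for lap, -0.166 to 0.0873 for Sesn, -0.0547 to 0.11 for Tango1, -0.0473 to 0.156 for CG1647, -0.196 to 0.0869 for Src64B, -0.529 to 0.525 for CG5274, -0.196 to 0.0831 for CanB, -0.0093 to 0.293 for CG6686 and -0.137 to 0.142 for CG1882. CG1882 turned with DESeq2's size factors (0.00069), with the replicate block (0.0043) and with the length offset (0.0685), as did CanB with the offset (0.0615). A count of 0 in a library allows up to 0.37 to 0.533 CPM at these depths.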
